A study of Homo sapiens with 6 samples.

Results

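Tumours of the human colorectal adenocarcinoma line HT-29 that had received no heat were compared between animals left without treatment and animals that carried a heated tumour on the other flank. In every animal HT-29 cells, 0.1 ml of suspension, were implanted in the left and right femoral region of Balb/c (nu/nu) mice aged 6 to 8 weeks, a strain with a severe lack of T cells that retains innate immune cells. On day 18 a tumour of each treated animal was heated for 30 min with an electromagnetic field, and tissue was taken 4 h later. The opposite-side group is the unheated tumour of those treated animals, and the control group is the tumour of untreated animals. All tumours share the cell line, the host strain and the site. Each group is 1 pool of RNA from dissected tissue, hybridised to 2 arrays that are technical replicates, so the comparison uses 4 of the 6 arrays of the series, chosen by their titles and source labels. The 2 arrays of the heated pool are given beside them for levels only. Neither the number of tumours in a pool nor the handling of the control animals (sham exposure, anaesthesia) is given in the sources used here. With 1 pool per group no test between the conditions is possible, and a response to heating of the other flank cannot be told apart from differences between the tumours that happened to enter each pool. In bulk tissue, fewer cells of a type and less RNA per cell cannot be told apart either.

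Heat unfolds proteins and frees the transcription factor HSF1, which binds heat shock elements in promoters and switches on chaperone genes such as those of HSP70, HSP40 and the small heat shock proteins. Local heating of a tumour is also discussed as a source of distant effects, through stress hormones, fever-like cytokines, or danger signals released by dying cells and sensed by immune cells. Glucocorticoid target genes, interferon targets, metallothioneins and heat shock genes are the usual places to look for such effects in a tumour that was not heated. HT-29 itself is a colon epithelial line that makes mucins and keratins.

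Values are log2 expression of Affymetrix HG-U133 Plus 2.0 probe sets, on which a difference of 1 is 2-fold. For each gene the probe set brightest over the arrays was used, and 7182 of 19775 genes were measured, meaning that the control or the opposite-side pool reached 5. The size rule asks for a difference of pool means of 1 or more, the same sign in each of the 4 pairings of an opposite-side with a control array, and a value of 5 or more on both arrays of the pool that is higher. For a pool below 5 the fold was taken against 5 and is a lower bound. Standard deviations over 2 arrays describe array error alone.

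The pools stood well apart from their own array error. Over 12740 measured probe sets the median absolute difference was 0.051 between the control arrays and 0.049 between the opposite-side arrays, and no probe set differed by 1 within either pool. Between the pools it was 0.155 to 0.158, and 77 to 84 probe sets differed by at least 1. The 40 probe sets for spike-in controls of known amount that reached 5 had a median difference of -0.18 (range -0.46 to -0.003). Of these probe sets 37 lay below control in all 4 pairs, against a median of -0.02 over measured genes. Several probe sets read the same spiked transcript, so they are not separate readings. Scaling the arrays to equal spike-ins would therefore add 0.18 to every difference. Probe sets along the beta-actin mRNA also differed: at its 5′ end the control arrays read 7.82 and 7.77 and the opposite-side arrays 9.07 and 9.06, a difference of 1.27, against 0.63 in the middle and 0.15 at the 3′ end. The corresponding differences along GAPDH were -0.01, 0.05 and 0.0005. The part of these control readings in the results below was not tested.

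**Figure D1:**
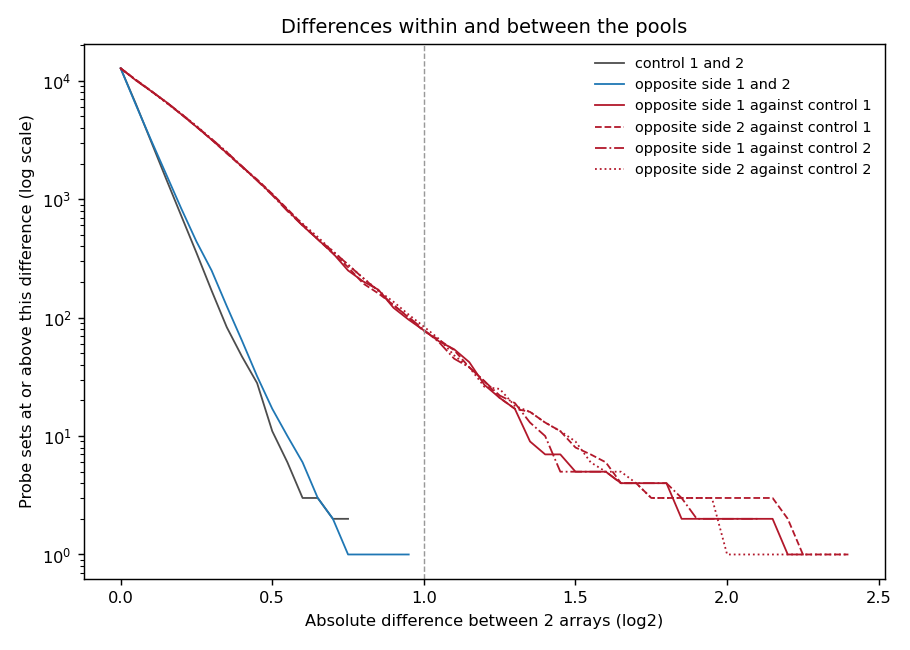
Number of measured probe sets (log scale) at or above each absolute difference in log2 expression between 2 arrays. Grey and blue lines pair the 2 arrays of one pool and red lines pair an opposite-side with a control array. No pair within a pool reaches 1, while each of the 4 red lines has 77 to 84 probe sets there.

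**Figure D2:**
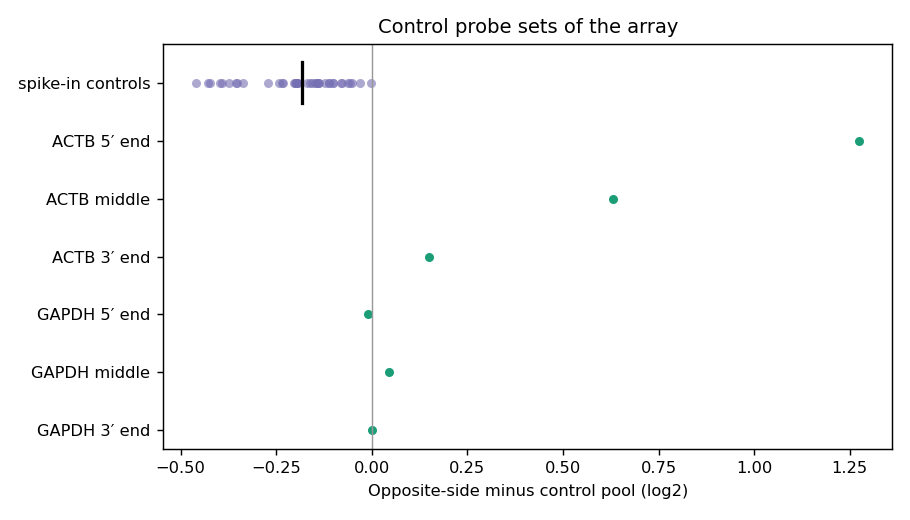
Opposite-side minus control pool mean (log2) of the array's own control probe sets. Points are the 40 spike-in probe sets, several for each spiked transcript, with a bar at their median of -0.18, and 3 positions along the ACTB and GAPDH mRNAs. The spike-ins lie at or below 0, and the ACTB difference grows from 0.15 at the 3′ end to 1.27 at the 5′ end.

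Few genes differed by 1 or more between the unheated tumours. In the opposite-side pool 17 genes were higher, 0.237% of those measured, and 12 were lower, 0.167%. In 7 of the former and 5 of the latter the pool with less signal lay below 5, so their folds are bounds only. At a smaller minimum difference of 0.5 (1.41-fold) 173 genes were higher (2.41%) and 308 lower (4.29%). Small shifts were common: 2445 genes (34.0%) lay above control in all 4 pairs and 3043 (42.4%) below, which is the background for the gene groups that follow. With spike-ins set equal, 32 genes were higher and 4 lower, so that 88.9% of the genes past 1 were higher in place of 58.6%. At 0.5 those counts were 567 and 93, or 85.9% higher in place of 36.0%. The same share was 47.7% with the arrays set to 1 median and 46.7% after quantile normalization.

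Most heat shock genes differed from control by less than 0.5 in the opposite-side pool. CRYAB and HSPA6 were higher by more than that, and DNAJA3, DNAJA1 and DNAJC11 lower. The 6 heat response lists hold the chaperones, their co-chaperones and other genes tied to HSF1, and 74 members were measured. Of these, 1 was higher by at least 1, 2 by at least 0.5, and 3 were lower by at least 0.5. Over all measured genes the corresponding shares were 0.237%, 2.41% and 4.29%. Above control in all pairs were 34 of the 74 and below it 22, against 34.0% and 42.4% of all measured genes. The median difference over the 74 genes was 0.02.

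CRYAB, which encodes alpha B-crystallin, a chaperone of the small heat shock family, read 3.97 and 4.22 on the control arrays and 5.18 on both opposite-side arrays, a difference of 1.09. The size rule itself asks for pools that do not overlap. The control pool lay under the level of 5, so the fold was at least 1.13. In the heated pool CRYAB stood at 7.09. HSPA6, an HSP70 that is nearly silent without stress, read 4.88 and 4.82 in control and 5.72 and 5.91 on the opposite side, a difference of 0.96 that stopped just short of the size rule. The heated pool read 8.71, so the opposite-side level lay much nearer to control than to the heated tumours. A second HSPA6 probe set, under 5 in both unheated pools, read 3.87 in control, 4.36 on the opposite side and 7.69 in the heated pool.

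The main inducible genes showed little. HSPA1A and HSPA1B, the classical inducible HSP70 genes, share their probe sets, and these differed by -0.03, -0.003 and -0.26 between the unheated pools, while the heated pool lay at 11.997, 12.28 and 10.13 against 10.20, 10.22 and 8.72 in control. DNAJB1, the inducible HSP40 that works with HSP70, read 6.66 and 6.72 in control and 6.73 on both opposite-side arrays, a difference of 0.04, against 8.61 in the heated pool. HSPH1, an HSP110 nucleotide exchange factor, differed by -0.08 and its arrays overlapped. BAG3, a co-chaperone that links HSP70 to autophagy, was 0.42 higher, at 7.95 and 7.91 against 8.33 and 8.37, and stood at 9.79 in the heated pool. ZFAND2A and the collagen chaperone SERPINH1 were 0.29 and 0.32 higher, and HSPB1, the small heat shock protein HSP27, 0.12 higher. CHORDC1, an HSP90 co-chaperone, was 0.18 lower.

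In the heated pool 10 heat response genes were at least 1 higher than in control. That choice uses the same control arrays, so it is given side by side and supports nothing. Their opposite-side differences ran from -0.18 to 1.09 with a median of 0.29, and 2 of the 10, HSPA6 and CRYAB, reached 0.5.

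**Figure D3:**
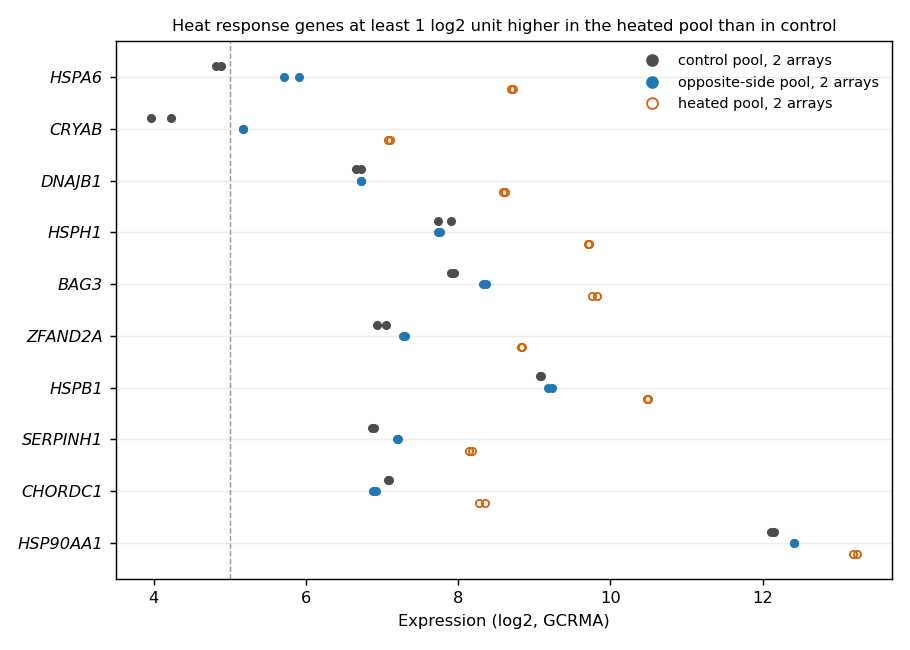
Log2 expression of the 10 heat response genes at least 1 higher in the heated than in the control pool. Points are single arrays, 2 for each pool, and the dashed line is the level of 5. The opposite-side points of DNAJB1, HSPH1 and CHORDC1 lie on or next to the control points, and those of HSPA6 and CRYAB lie 0.96 and 1.09 above them on average.

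The promoters of HSPA6, HSPA1A, DNAJB1 and HSP90AA1 hold short matches to the heat shock element. In the RefSeq windows (GRCh38.p14) the motifs GAANNTTC and TTCNNGAA, each of which reads the same on both strands and which may overlap, were searched in the 250 bases before each start. Of all 35116 windows 11.6% hold a match. The heat response genes have 92 windows for 66 of the 74, of which 14.1% hold one. Of the 29 genes past the size rule, 21 have a window, and 5 of their 37 windows (13.5%) hold a match, in CEMIP, PRR5L, SGMS2 and VIM. The 4 sequences below are printed because they carry the motif, in capitals, near the start of genes that were high in the heated tumours, while the same genes differed in the unheated tumours by 0.96 (HSPA6), by -0.03, -0.003 and -0.26 (the probe sets of HSPA1A), by 0.04 (DNAJB1) and by 0.28 (HSP90AA1). They lie at chr1:161524290-161524539 (plus strand, 3 matches), chr6:31815293-31815542 (plus strand, 1 match), chr19:14518398-14518647 (minus strand, 2 matches) and chr14:102087045-102087294 (minus strand, 3 matches).
HSPA6: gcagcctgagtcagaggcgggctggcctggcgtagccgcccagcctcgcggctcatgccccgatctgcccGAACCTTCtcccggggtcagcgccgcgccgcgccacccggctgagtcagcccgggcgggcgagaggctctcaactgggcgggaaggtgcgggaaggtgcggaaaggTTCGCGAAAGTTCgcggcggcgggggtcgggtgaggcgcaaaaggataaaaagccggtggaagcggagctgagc
HSPA1A: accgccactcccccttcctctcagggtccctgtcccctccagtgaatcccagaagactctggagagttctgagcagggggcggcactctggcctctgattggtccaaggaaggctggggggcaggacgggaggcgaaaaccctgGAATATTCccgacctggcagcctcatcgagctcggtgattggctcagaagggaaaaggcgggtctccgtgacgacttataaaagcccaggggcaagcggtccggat
DNAJB1: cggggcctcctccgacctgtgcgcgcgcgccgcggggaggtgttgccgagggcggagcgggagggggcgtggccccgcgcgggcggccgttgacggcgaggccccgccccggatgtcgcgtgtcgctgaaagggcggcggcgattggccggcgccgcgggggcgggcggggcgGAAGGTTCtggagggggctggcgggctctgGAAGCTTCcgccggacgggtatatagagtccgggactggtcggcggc
HSP90AA1: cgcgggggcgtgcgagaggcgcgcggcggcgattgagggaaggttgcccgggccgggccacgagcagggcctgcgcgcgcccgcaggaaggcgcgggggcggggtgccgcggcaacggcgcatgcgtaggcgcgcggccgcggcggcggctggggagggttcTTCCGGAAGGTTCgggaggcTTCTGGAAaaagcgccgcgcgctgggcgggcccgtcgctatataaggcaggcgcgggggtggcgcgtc
The match nearest to the start lies 69 bases before it in HSPA6, 106 in HSPA1A, 47 in DNAJB1 and 68 in HSP90AA1. DNAJB1 has 3 windows and HSP90AA1 has 2, and for each the window with the most matches was printed. A match describes the letters of the window and no binding was measured.

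Within the chaperone families the small differences ran both ways. Of 7 measured HSP70 and HSP110 genes 6 lay above control in all pairs, with a median of 0.26, which was 0.17 at a level of 4 or 6 and 0.13 with the median over each gene's probe sets. Besides HSPA6 these included HSPA5, the endoplasmic reticulum HSP70 (0.37, from 10.61 and 10.65 to 11.01 and 10.99), HSPA4 (0.28) and HSPA14 (0.26). Other measured probe sets turned the sign in HSPA4 (-0.46, from 5.90 to 5.44) and HSPA5 (-0.11), while a further one of HSPA4 differed by 0.39. HSPA8, the constitutive HSP70, is measured only by probe sets shared with small nucleolar RNAs, which gave -0.52, -0.48, -0.38 and 0.05. Of 26 HSP40 genes 9 lay above and 8 below in all pairs. The 3 that were at least 0.5 lower were DNAJA3, a mitochondrial HSP40 (-0.62, from 7.28 and 7.39 to 6.77 and 6.66), DNAJA1 (-0.54, from 8.36 and 8.39 to 7.83 and 7.84, against 9.14 in the heated pool) and DNAJC11 (-0.52). DNAJB9, an endoplasmic reticulum HSP40, was 0.38 higher.

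Among 14 HSP90 and co-chaperone genes 3 lay above and 8 below, with a median of -0.06 that became 0.12 with spike-ins set equal. HSP90AA1, the inducible HSP90, was 0.28 higher (12.11 and 12.15 against 12.41 and 12.41), the ubiquitin ligase STUB1 was 0.34 lower, FKBP5 0.28 lower and STIP1, the adaptor between HSP70 and HSP90, 0.26 lower. Of 9 chaperonin genes 7 lay above and none below, with differences of 0.18 in HSPE1, the mitochondrial HSP10, 0.17 in CCT5, 0.14 in CCT6A (-0.20 in another probe set) and 0.12 in CCT8. Among the 11 other HSF1-linked genes, IER5 was 0.41 lower, HSPBP1 0.34 lower and CLU 0.31 lower. Of 7 small heat shock and BAG genes 3 lay above and 2 below, with a median of 0.07, and BAG1 was 0.21 lower, with 0.12 in another probe set.

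Past the size rule on the opposite side were VIM, TAGLN, CDH11 and THBS1, genes known from mesenchymal cells or the contractile cytoskeleton. All 4 rest on _x_at or _s_at probe sets, which can take up signal of related transcripts, and none passed the rule without them. VIM has no probe set of another kind, so it could not pass in that setting. VIM, which encodes the intermediate filament vimentin, read 6.30 and 6.72 in control and 7.78 and 7.77 on the opposite side, 2.40-fold higher, with 7.65 in the heated pool. TAGLN, an actin-binding protein of smooth muscle and fibroblasts, read 6.69 and 6.87 against 7.85 and 7.80, 2.06-fold higher, with 8.44 in the heated pool. CDH11, a cadherin of mesenchymal cells, read 5.11 and 5.06 against 6.30 and 6.25, 2.29-fold higher, with 6.33 in the heated pool. No array of one pool overlapped the other for these genes, which the size rule itself requires.

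THBS1, a secreted matrix glycoprotein that restrains vessel growth, read 4.58 on both control arrays and 5.80 and 5.83 on the opposite side, at least 1.76-fold higher, with 6.40 in the heated pool. TCF4, a basic helix-loop-helix factor, read 4.25 and 4.20 against 5.27 and 5.27, at least 1.21-fold higher. QKI, an RNA-binding regulator of splicing, read 6.04 and 6.00 against 7.16 and 7.15, 2.20-fold higher, and a second probe set of QKI differed by 1.43. The other probe sets of VIM, TAGLN, CDH11, THBS1 and TCF4 stayed below 5 in both pools. For CDH11 the other probe sets lay near the lowest value of the table, 2.37, with differences of 0, 0.01 and -0.02.

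The higher genes also included a glucocorticoid target and 2 lysosomal genes. SGK1, a kinase induced by serum and glucocorticoids, read 5.12 and 4.86 in control and 6.12 and 6.06 on the opposite side, at least 2.13-fold higher, with 6.31 in the heated pool. CTSZ, a lysosomal cathepsin, read 7.30 and 7.18 against 8.44 and 8.45, 2.30-fold higher, and TMEM106B, a lysosomal membrane protein, read 6.17 and 6.23 against 7.21 and 7.27, 2.06-fold higher. Both lay lower in the heated than in the opposite-side pool, at 7.86 and 6.83. VNN1, a pantetheinase at the cell surface, was 2.11-fold higher (6.10 and 6.13 against 7.16 and 7.22, heated 6.72), and its second probe set differed by 1.30.

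The other higher genes have varied roles. ARHGEF28 was 2.01-fold higher, and its 4 other measured probe sets differed by 0.23 to 0.65. PPP3R1, the regulatory subunit of calcineurin, was at least 1.93-fold higher, SGMS2, a sphingomyelin synthase, 2.05-fold and C5orf46 at least 1.69-fold. HBE1, the embryonic epsilon globin, read 6.16 and 5.92 in control and 7.04 and 7.09 on the opposite side, 2.04-fold higher, and 11.22 in the heated pool. A second HBE1 probe set stayed at 2.37 in all pools. The probe set that the annotation names Igk, an immunoglobulin kappa light chain symbol in mouse style, had the widest difference, 2.01, from 2.93 and 3.42 to 5.22 and 5.15, but ended barely above the level of 5, so that its fold was at least 1.14. It read 6.30 in the heated pool.

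Among the 12 lower genes the first by size with both pools at or above 5 was CEMIP, which takes part in the breakdown of hyaluronan. It read 6.71 and 6.89 in control and 5.59 and 5.38 on the opposite side, 2.49-fold lower, while the heated pool stood at 6.80, the control level. Another probe set of CEMIP, below 5, differed by -0.05. PRR5L, a partner of the mTORC2 complex, read 6.57 and 6.54 against 5.41 and 5.34, 2.27-fold lower, with 6.27 in the heated pool and -0.65 in a second probe set. KRCC1 read 7.41 and 7.39 against 6.34 on both arrays, 2.08-fold lower, with 7.28 in the heated pool, and its 2 other measured probe sets differed by -1.07 and -0.85. For these 3 genes the heated pool lay nearer to control than to the opposite-side pool. The same held for SND1-IT1, ADRA2A, SF3A2, TMEM44 and WNK4, but not for FCGBP, SIPA1L2, NEK5 and ZNF609.

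FCGBP, a mucus protein of goblet cells, read 5.98 and 6.08 against 4.88 and 4.92, at least 2.04-fold lower, with 5.30 in the heated pool. ADRA2A, the alpha-2A adrenergic receptor, read 5.34 and 5.54 against 4.17 and 4.24, at least 1.36-fold lower, and WNK4, a kinase that regulates salt transport, was at least 1.48-fold lower. The noncoding SND1-IT1 had the largest negative difference, -1.35, but its opposite-side arrays, 4.21 and 3.71, lay below 5 and its fold was at least 1.24. NEK5, a kinase of the NIMA family, was at least 1.95-fold lower, at 4.81 on the opposite side and 4.79 in the heated pool.

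TMEM44 was 2.25-fold lower, although its opposite-side arrays disagreed, at 5.32 and 4.84. SIPA1L2, an activator of Rap GTPase activity, was 2.10-fold lower and a second probe set differed by -1.18. ZNF609, a zinc finger protein, was 2.02-fold lower, with 5.70 in the heated pool. SF3A2, a component of the U2 spliceosomal particle, was 2.22-fold lower, but its other measured probe set differed by only -0.09. Over the 29 genes, 9 had another measured probe set, 14 in all, of which none turned the sign and 9 passed 0.5 in the same direction. Some of them reached 5 only in the pool where the gene was higher, as in QKI (4.55 in control, 5.98 on the opposite side) and VNN1 (4.43 and 5.72). The count therefore gives no separate support. Other probe sets exist for 22 of the 29 genes, and many that stayed below 5 differed by about 0 or turned the sign.

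**Figure D4:**
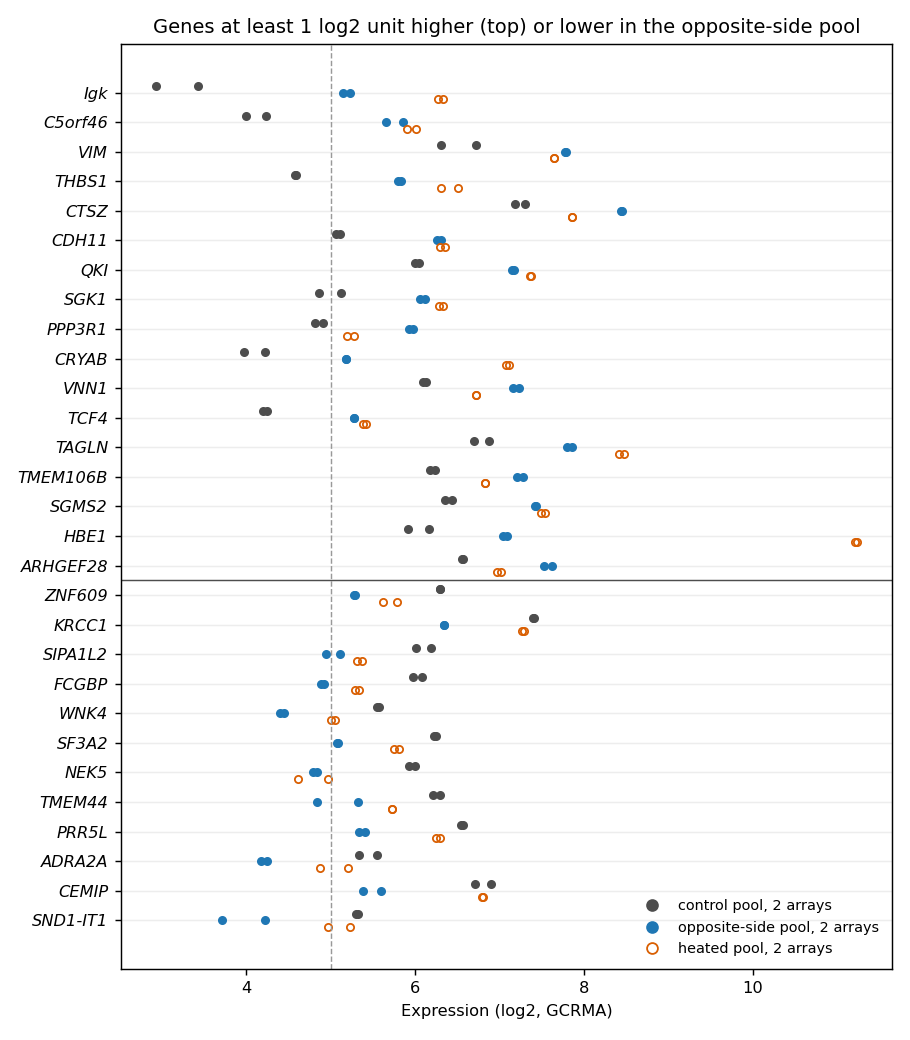
Log2 expression of the 17 genes higher (above the line) and 12 lower in the opposite-side pool, in order of their difference. Points are single arrays, 2 for each of the control, opposite-side and heated pools, and the dashed line marks the level of 5. The size rule itself requires the arrays of the 2 unheated pools to be separate, and the gaps are 0.88 to 1.73. HBE1 and CRYAB are the genes whose heated pool lies farthest above the opposite-side pool.

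The genes on either side of the size boundary were close in size. Just inside were ARHGEF28 (1.01) and HBE1 (1.03) among the higher genes and ZNF609 (-1.01) and KRCC1 (-1.06) among the lower. Just outside were MT1F (0.99), HSPA6, FGD6 (0.96), IFNGR1, the interferon gamma receptor (0.96), and EMP1 (0.95) above, and ADM (-0.98), SPPL2B (-0.97), LYAR (-0.97), EME2 (-0.94) and SPIRE2 (-0.94) below. Other measured probe sets turned the sign for IFNGR1 (-0.14) and SPIRE2 (0.49). A further probe set of IFNGR1 differed by 1.08. Other measured ones kept the sign in FGD6 (1.30 and 0.21), EMP1 (0.45) and EME2 (-1.02).

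Stress hormone and metal response genes gave some of the larger differences among the lists. Of 9 measured glucocorticoid and FOXO targets 6 lay above control in all pairs and 3 below, with a median of 0.28, or 0.03 without _x_at and _s_at probe sets. TXNIP, the thioredoxin inhibitor, was 0.64 higher beside SGK1, while FBXO32, the atrophy-linked ubiquitin ligase, was 0.92 lower by its brightest probe set (6.52 and 6.50 against 5.65 and 5.53) but 0.34 and 0.11 higher by 2 others, and DDIT4, an inhibitor of mTORC1, 0.51 lower. FKBP5, a further glucocorticoid-induced gene, was 0.28 lower as given above, so known targets differed in both directions. Of 7 metallothionein and zinc export genes 6 lay above and none below, with a median of 0.20. MT1F read 6.24 on both control arrays and 7.19 and 7.28 on the opposite side, with 7.83 in the heated pool, the zinc exporter SLC30A1 was 0.59 higher, MT1X 0.49 and MT2A 0.20. Members of the metallothionein family are near-identical and their probe sets may share signal.

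Danger signals and immune genes moved little. All 7 measured danger signals lay above control in every pair, with a median of 0.15, or 0.09 without control array 2, and ANXA1, a calcium-binding modulator of inflammation, was the one past 0.5, at 0.74 (8.76 and 8.80 against 9.53 and 9.52, heated 9.73). HMGB2 was 0.26 higher and CALR, calreticulin, 0.15 higher. Of 14 genes for MHC class I and peptide loading 11 lay above and 2 below, with a median of 0.14, or 0.05 without _x_at and _s_at probe sets and 0.08 without opposite-side array 1, and none reached 0.5. TAP2, a peptide transporter, was 0.45 higher, HLA-F 0.31 and PDIA3 0.26 (0.05 and -0.05 in other measured probe sets), while PSMB10, an immunoproteasome subunit, was 0.24 lower.

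Interferon targets were mixed. Of 7 measured members 2 lay above and 3 below, with a median of -0.07. It became 0.11 with spike-ins set equal and 0.07 without _x_at and _s_at probe sets. IFITM3 and IFITM2 both rest on _x_at probe sets. IFITM3, an antiviral membrane protein, was 0.53 lower (8.56 and 8.61 against 8.06 and 8.04), IFITM2 0.49 lower and ISG15 0.26 lower, and the regulator IRF1 was 0.31 higher. Of 20 NF-kB and inflammatory genes only 5 were measured. TNFAIP3, a feedback inhibitor of NF-kB, was 0.67 higher, at 5.27 and 5.25 against 5.94 and 5.91, while the arrays overlapped for PTGS2 (0.16), NFKBIA (-0.07) and CXCL2 (0.05).

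Growth factor signalling genes showed small differences. All 7 measured YAP and TEAD targets lay above control in every pair, with a median of 0.22, or 0.46 with the median over each gene's probe sets. AMOTL2 was 0.49 higher, CCN1 0.49, AJUBA 0.36 and the kinase LATS2 0.22. Among 10 MAPK feedback genes 5 lay above and 4 below, with PHLDA1 0.58, the phosphatase DUSP6 0.46, EPHA2 0.38 and SPRED2 0.34 higher. Other measured probe sets of PHLDA1 differed by 0.68 and -0.16. Of the EGFR family and ligands, the ligand TGFA was 0.52 higher, EREG 0.35 higher and ERBB2 0.09 higher, and ERRFI1, a receptor inhibitor, was 0.52 lower.

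Of 17 immediate early genes 6 lay above and 10 below, with a median of -0.14 that became 0.05 with spike-ins set equal. FOS read 6.52 and 6.38 in control against 5.59 and 6.01, a difference of -0.65, and 6.58 in the heated pool. MYC was 0.47 higher, KLF10 0.42 higher and ZFP36 0.43 lower. Of 7 clock genes, BHLHE40 was 0.56 lower and BHLHE41 0.28 lower, and the repressors CRY1 and PER2 were 0.52 and 0.37 higher.

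The hypoxia list was centred near 0. Of 27 measured genes 11 lay above and 12 below, 3 were at least 0.5 lower and none higher, and the median was 0.01, or -0.002 after quantile normalization. ADM, the vasodilator peptide adrenomedullin, read 9.37 and 9.36 in control against 8.37 and 8.39 on the opposite side, a difference of -0.98, with 8.62 in the heated pool. PFKFB3, which drives glycolysis, was 0.67 lower, EGLN3, an oxygen sensor, 0.54 lower and PDK1 0.37 lower. Another measured probe set of EGLN3 was 0.15 higher.

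In the endoplasmic reticulum 16 of 22 unfolded protein response genes lay above control and 1 below, with a median of 0.10. HERPUD1, a degradation factor, was 0.52 higher, and DNAJB11 was 0.31 higher beside HSPA5 and DNAJB9. ATF4 targets had 10 above and 4 below, with ASNS 0.42 and PSAT1 0.29 higher and ATF5 0.32 lower. Of 15 NRF2 and aldo-keto reductase genes 5 lay above and 8 below, with a median of -0.04 that became 0.14 with spike-ins set equal. ABCC3, an efflux transporter, was 0.67 lower, with -0.98 to -0.16 in its other measured probe sets. AKR1B10 was 0.46 lower, GCLC 0.35 higher and SLC7A11 0.23 higher.

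Death and growth lists were centred near 0. Among 18 apoptosis regulators 8 lay above and 4 below. BIK, a pro-apoptotic BH3 protein, was 0.73 higher (4.97 and 5.21 against 5.78 and 5.88), CFLAR, an inhibitor of death receptors, also 0.73, BID 0.35 and MCL1 0.34. Other measured probe sets gave 0.65, 0.36 and -0.08 for CFLAR and 0.89 for MCL1. Of 14 p53 targets 5 lay above and 4 below, with TP53INP1 0.57, SESN1 0.28 and GADD45A 0.22 higher and TP53I3 0.28 lower. TP53INP1 lay close to the level of 5, passed it on opposite-side array 1 alone, and so did not count as higher at 0.5. The 30 cell cycle genes had 10 above and 10 below and a median of 0.01, with MCM5 0.46, CDC45 0.34 and CDC20 0.23 lower and CCNB1 0.24 higher (-0.16 in another probe set). Among 16 histone genes 8 lay above and 3 below, with H1-10 0.43 and H2BC21 0.29 higher and H2BC4 0.43 and H2AX 0.19 lower.

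Ribosome biogenesis genes lay mostly below control. Of 20 measured genes 1 lay above and 14 below, with a median of -0.16, against 42.4% of all measured genes below, and that median became 0.02 with spike-ins set equal and -0.09 without _x_at and _s_at probe sets. POLR1G, a subunit of RNA polymerase I, read 6.88 and 6.80 against 6.26 and 6.25, a difference of -0.59, with 6.60 in the heated pool. NOP2 was 0.45 lower, FBL, the fibrillarin of the nucleolus, 0.39 lower and RRP12 0.38 lower. The 54 ribosomal protein genes kept within -0.16 (RPS28) to 0.15 (RPL27A), with RPL18 and RPL36 0.13 lower and a median of -0.02, or 0.16 with spike-ins set equal.

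Of 41 proteasome genes 23 lay above and 10 below, and PSMD12, a subunit of the regulatory particle, was 0.72 higher (8.14 and 8.10 against 8.86 and 8.82), but its other measured probe set differed by -0.04. PSMD10 was 0.37 higher, PSMG4 0.33 lower and PSMB2 0.28 lower. Among 69 respiratory chain genes 24 lay above and 31 below, with ATP5F1D 0.54, NDUFV1 0.53 and NDUFA11 0.33 lower and SDHD 0.40 higher, and a median of -0.01 that became 0.17 with spike-ins set equal. Lipid synthesis genes were balanced at 8 above and 8 below, with PMVK 0.45 and HSD17B7 0.41 lower and HMGCS1 and SQLE 0.29 higher. Other measured probe sets of SQLE were 0.35 lower and 0.15 higher. The 15 splicing regulators had 7 above and 5 below, with CLK4 0.49 higher, SRSF11 0.30 higher and CLK3 0.27 lower. TRA2A was 0.49 higher by its brightest probe set, and its 3 other measured ones differed by -0.19, -0.19 and -0.02.

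Most measured genes of the mucin, trefoil and differentiation list were lower, but 15 of its 22 genes stayed below 5 in both pools. The 7 measured had a median of -0.37, which remained below 0 in each of the 3 other scalings (-0.35 to -0.13). Against 42.4% of all measured genes below, none of the 7 lay above and 6 lay below control in all pairs. Beside FCGBP these included MUC5AC, a gel-forming mucin (5.23 and 4.85 against 4.26 and 4.46), TFF3, the intestinal trefoil factor (5.37 and 5.35 against 4.96 and 4.97), and AGR2, a disulfide isomerase needed for mucin folding (11.95 and 11.93 against 11.57 and 11.58). MUC5AC lay close to the level of 5 and passed it on control array 1 alone. The heated pool read 4.47, 4.72 and 11.64 for those 3 genes, near the opposite-side pool. Of the Wnt and stem cell genes, AXIN2, a direct Wnt target, was 0.77 higher (6.90 and 6.85 against 7.62 and 7.67), PROM1 0.41 higher, and the ubiquitin ligases RNF43 and ZNRF3, which remove Wnt receptors, differed by -0.31 and -0.07.

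**Figure D5:**
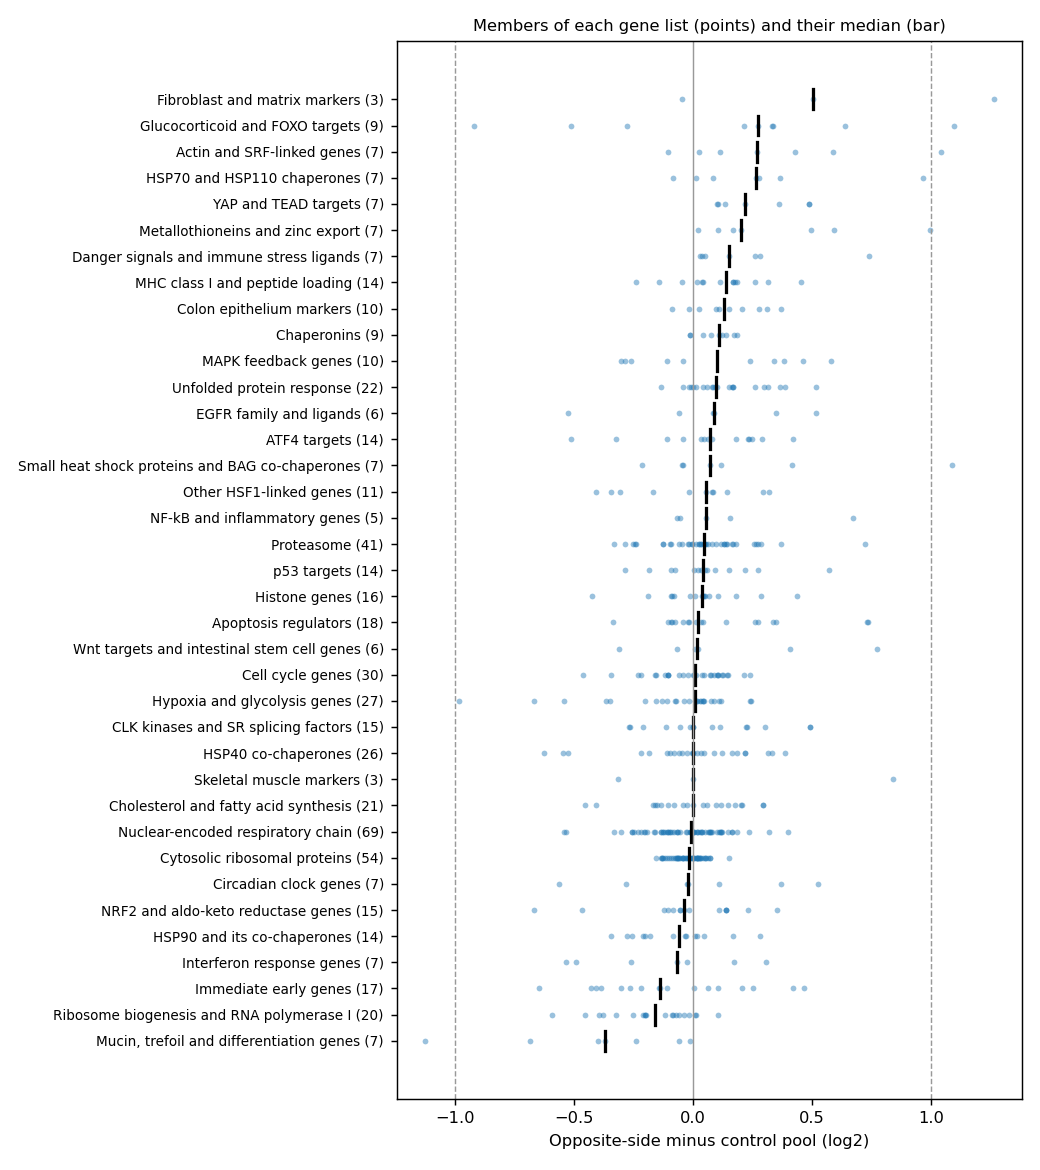
Opposite-side minus control difference (log2) of each measured member (points) and the list median (bar) for the 37 lists with at least 3 measured members, whose number stands in brackets. Dashed lines mark the size rule. Medians run from 0.50 in the matrix markers, with 3 members, to -0.37 in the mucin and trefoil list, and most points lie within 0.5 of 0.

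Cell type markers were read for the tumour label and for host tissue. Of 13 colon epithelium markers 10 were measured, and 8 of them lay above control and 1 below. Sums of linear levels are taken here over all members on the array, measured or not, and that of the colon list was 33900 and 33800 in control and 37300 on each opposite-side array. CEACAM6 was 0.37, CDH1, the epithelial cadherin, 0.31, KRT20 0.28 and KRT8 0.20 higher. CDX1, CDX2 and GPA33 lay at or near the lowest value of the table in both pools. Actin and SRF-linked genes had 5 of 7 above and 1 below and a median of 0.27, which was 0.11 at a level of 4, 0.08 with the median over each gene's probe sets and 0.02 without _x_at and _s_at probe sets. CALD1 was 0.59 higher (7.58 and 7.69 against 8.23 and 8.22, with 0.03 and 0.29 in other measured probe sets), VCL 0.43 and TPM1 0.27 higher beside TAGLN.

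Only 3 of 17 fibroblast and matrix markers were measured. Their list's summed linear level was 319 and 345 in control and 518 and 509 on the opposite side. VIM, itself past the size rule, makes up most of that rise. Of the 14 members below 5, 7 lay at or near the lowest value of the table. Beside VIM, COL1A1 was 0.50 higher (6.62 and 6.68 against 7.16 and 7.14) and FN1 differed by -0.05. COL3A1 stayed below 5, at 3.94 in control, 4.88 on the opposite side and 4.98 in the heated pool, and SPARC, FAP and PDGFRB lay at 2.37. Of 22 skeletal muscle markers 3 were measured, and the summed level of the whole list was 342 and 334 against 362 and 360. MYL11, a fast muscle myosin light chain, was 0.84 higher, at 5.02 and 5.08 against 5.89 on both arrays and 6.65 in the heated pool, and TNNT1 was 0.31 lower. TNNT3 read 5.437 on each of the 4 compared arrays and on heated array 2. Such a repeated value cannot be read as a measured lack of difference. ACTA1, the skeletal actin, read 3.10, 4.11 and 5.27 in the control, opposite-side and heated pools.

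Other host cell types were hardly seen. The 1 measured endothelial marker, FLT1, was 0.19 lower, with CDH5 and EMCN at 2.37, and the endothelial sum was 106 and 103 against 103 and 102. LYZ, which gut epithelium also makes, was the 1 measured leukocyte marker, 0.15 higher (-0.09 in another probe set), with CD14, CSF1R and CD3E at 2.37 and a sum of 3200 and 3090 against 3440 and 3530. KRT10, 0.15 higher, was the 1 measured epidermal marker, with a sum of 426 and 438 against 476 on both arrays, and no adipocyte marker was measured, with sums of 47.4 and 50.8 against 45.7 and 45.1. The red blood cell sum was 118 and 106 against 178 and 182, with HBE1 its 1 measured member and HBD and HBZ at 2.37. HBE1, by 1 probe set, makes up most of that rise. HBB read 2.88 in control and 2.92 on the opposite side, and AHSP 4.06 in both pools. LYZ and KRT10 likewise make up most of the leukocyte and epidermal sums. The array holds human sequences, and how much mouse RNA of the host contributes to a probe set is not resolved by it. The part of these markers in the other differences was not tested.

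Probe sets outside the gene comparison were counted by the same rule. Over all 12740 measured probe sets 41 were higher (0.322%) and 34 lower (0.267%). Of these, 10 higher and 10 lower ones name no gene in the annotation and 2 and 1 name several. The unnamed probe set 1570561_at read 3.04 on both control arrays, 5.19 and 5.45 on the opposite side and 9.88 in the heated pool, its control level lying far below 5, and 205890_s_at, which names UBD and GABBR1, read 4.51 and 4.19, then 6.32 and 6.15, and 6.91. The lower ones included the unnamed 240991_at, at 8.76 and 8.78 against 7.43 and 7.23, with 7.72 in the heated pool.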

How the data were processed

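The authors deposited log2 expression values of 6 Affymetrix HG-U133 Plus 2.0 arrays, of which 4 were compared here. GCRMA, which corrects background, normalizes by quantiles and summarises probe sets, is named in the submitters' processing notes without a version, and the range of the values shows the log2 scale. Depth does not apply to arrays, and the number of arrays limits the precision. Of 54675 probe sets, 62 are array controls, 41097 name 1 gene (41043 matched by Entrez identifier to current symbols), 1801 several and 11777 none. Pool means and their differences were computed with Python 3.11.15, numpy 2.4.6 and pandas 2.3.3, and figures were drawn with matplotlib 3.10.9. The counting rule was tested on simulated data. No p-value was computed.

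The members, the 42 gene lists and the rules were chosen with earlier results of these data known. The genes named are all those past the minimum difference of 1, up to 20 each way, and up to 4 measured members of each list with the largest absolute difference. The heat response genes high in the heated pool, the genes next to the size boundary, shared probe sets and markers below 5 were named after their values were seen. Sequences are RefSeq windows of GRCh38.p14. The alternatives were other levels and minimum differences, no agreement of pairs, linear averaging, other scalings, other choices of probe set, and leaving out each array. Genome coordinates are given for the promoter windows only.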

Additional observations from a re-analysis of the deposited data

How the results depend on the processing

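Of the 17 higher and 12 lower genes, the count of higher ones was 11 with a level of 6, 2 with a minimum difference of 1.5 (Igk and C5orf46), 36 with 0.8, 32 with equal spike-ins and 11 without _x_at and _s_at probe sets, which cost CDH11, CTSZ, TAGLN, THBS1, TMEM106B and VIM. Among these, CTSZ and VIM have only _x_at or _s_at probe sets and could not pass in that setting. The count of lower ones was 7 with a level of 6, 0 with 1.5, 36 with 0.8 and 4 with equal spike-ins (SND1-IT1, CEMIP, ADRA2A and PRR5L). The count at least 0.5 higher was 59 with 0.7, 334 with 0.4 and 567 with equal spike-ins, and the count at least 0.5 lower was 195 with a level of 6, 74 with 0.7, 553 with 0.4 and 93 with equal spike-ins. Leaving out each array gave 15 to 19 higher and 12 to 15 lower genes, and 181 to 194 and 322 to 348 at 0.5. CRYAB, SIPA1L2 and TAGLN dropped out without control array 1, HBE1, SGK1 and SGMS2 without control array 2, ARHGEF28 without opposite-side array 1, and HBE1, SIPA1L2 and TMEM44 without opposite-side array 2. The difference of CDH11 turned to -0.022 without _x_at and _s_at probe sets, and that of CEMIP became -0.05 and that of THBS1 0.03. Of 287 values for the 29 genes past the size rule, 235 stayed within the spread of the array pairs, 51 moved further and 1 turned. Of 37 list medians, 9 changed sign with equal spike-ins, 4 with equal medians and 5 after quantile normalization, and of 32 that could be formed without _x_at and _s_at probe sets 7 did, among them the chaperonins (-0.01) and the other HSF1-linked genes (-0.09). The cause was not tested. The other alternatives changed no count by over 1.5 times. No paired analysis was possible because the comparison rests on no test and the array numbers are technical replicates of 1 pool.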

Other observations

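Some genes outside the lists are given as single values, picked for their difference after the values were seen, and they say nothing of the groups they belong to. Higher on the opposite side were the integrin subunits ITGAV (8.89 and 8.85 against 9.67 and 9.68), ITGB8 and ITGA2 by 0.81, 0.72 and 0.55, the caveolae genes CAV1 and CAV2 by 0.60 and 0.57, ANXA3 by 0.78 and the matrix protein TGFBI by 0.70 (9.96 and 9.95 against 10.65 on both arrays). The transcription factors ETS1 and FOXQ1 differed by 0.91 and 0.92. In the heated pool TGFBI stood at 10.93, CAV1 at 8.49 and ETS1 at 8.56.

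Lower on the opposite side were the nucleolar gene LYAR (7.03 and 7.08 against 6.12 and 6.05), the ribosome assembly factors PWP2 by -0.84, NOC3L by -0.74 and TCOF1, the treacle protein, by -0.71, and NAT10, an RNA acetyltransferase, by -0.68. In the heated pool PWP2 stood at 6.02 and NAT10 at 7.02, against control arrays of 6.20 and 6.23 and of 7.33 and 7.33. REG4 read 10.28 and 10.34 against 9.54 and 9.48, and HEPACAM2 and CFTR, the chloride channel of secretory epithelium, differed by -0.83 and -0.92.

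Probe sets of one gene disagreed in places. TPM1 was 0.27 higher by its brightest probe set, and 1.15 and 1.14 higher by 206116_s_at and 206117_at. FKBP1A differed by -0.01 by its brightest probe set and by 1.03 by both 210186_s_at and 214119_s_at, and DST by 0.23 and, in 204455_at, by 1.67. For G3BP1 the values were -0.11 and, in 1557350_at, -1.23.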
